A study of Mus musculus with 6 samples.

Results

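The genes described here are 10 members of the YAP-TEAD pathway, measured by RNA-sequencing in the mouse pancreas. They are Yap1, Wwtr1, Tead1, Tead4, Cyr61, Ctgf, Ankrd1, Lats2, Amotl2 and Ajuba. They were chosen by name, and all 10 have a row among the 22556 genes of the tables. Each reached a mean of at least 1 TPM over all mice, as did 16814 genes in all, and was therefore tested. TPM divides the reads of a gene by its length and scales every library to the same total, so that genes of different length can be set side by side.

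The 6 mice were male wild-type C57BL/6 animals, 8 weeks old according to the labels, with 2 mice in each of 3 groups. Controls received saline (the group named saline in the plots). In the AP mice, acute pancreatitis was induced by injecting 200 μg/kg caerulein into the abdomen 10 times, once an hour. Caerulein is a peptide that overstimulates the enzyme-secreting acinar cells. Pretreated mice received the same caerulein course after 10 mg/kg polyI:C, a man-made double-stranded RNA, which the study's methods place 1 or 8 h earlier (polyI:C + AP in the plots). The scheme of the study's main mouse model gives 8 h, and the interval of the sequenced mice is not stated. By the same methods, mice were fasted before induction, and those without polyI:C were given saline in its place. Pancreases were removed 24 h after the first caerulein injection. RNA came from the whole organ, so more cells of a type and more RNA per cell cannot be told apart in any of the values below.

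YAP, the product of Yap1, and TAZ, the product of Wwtr1, are transcriptional coactivators that do not bind DNA themselves. In the nucleus they bind TEAD transcription factors, which recognise short sites in promoters and enhancers of target genes such as Cyr61, Ctgf and Ankrd1. The Hippo kinase cascade ends in LATS1 and LATS2, which phosphorylate both coactivators and hold them in the cytoplasm. In the pancreas, the coactivators are known as genes of duct cells and of acinar cells that take on duct-like features after injury. Phosphorylation and location of the proteins are not visible in RNA levels.

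The DNA before the RefSeq starts of the members is shown first, because the letters recognised by TEAD factors can be seen in it. RefSeq promoter windows (build GRCm38.p6) of 250 bases before the most upstream RefSeq start were matched for 7 members. They were searched for GGAATG, or CATTCC on the other strand. Windows of Tead1, Tead4 and Ctgf were not matched. The letters were found in 6 of the 7 windows, against 12.6% of the windows of 27025 genes. Known YAP targets are among the members, which were chosen by name, so an excess is partly built into the choice. The 6 also include the windows of Ankrd1 and Amotl2, which lie inside these genes, as described below. In the other listed YAP targets and Hippo pathway genes described below, 3 of 13 and 9 of 23 matched windows held them. A match is a description of the letters and no proof of a bound site. The windows of the coactivator genes and of Cyr61 and Ajuba follow, 5′ to 3′ on the strand of the gene, with TEAD letters in capitals.
Yap1, chr9:8004597-8004846, minus strand: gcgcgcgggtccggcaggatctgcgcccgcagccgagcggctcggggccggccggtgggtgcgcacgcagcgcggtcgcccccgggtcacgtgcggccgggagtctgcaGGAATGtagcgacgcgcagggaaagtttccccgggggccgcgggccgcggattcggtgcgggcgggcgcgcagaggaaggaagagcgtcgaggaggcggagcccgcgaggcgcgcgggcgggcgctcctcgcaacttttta
Wwtr1, chr3:57575911-57576160, minus strand: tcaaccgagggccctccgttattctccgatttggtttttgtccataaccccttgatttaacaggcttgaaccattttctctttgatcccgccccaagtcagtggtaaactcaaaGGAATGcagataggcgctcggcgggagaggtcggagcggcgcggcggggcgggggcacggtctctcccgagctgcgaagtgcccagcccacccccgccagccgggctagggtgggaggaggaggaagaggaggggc
Cyr61, chr3:145649986-145650235, minus strand: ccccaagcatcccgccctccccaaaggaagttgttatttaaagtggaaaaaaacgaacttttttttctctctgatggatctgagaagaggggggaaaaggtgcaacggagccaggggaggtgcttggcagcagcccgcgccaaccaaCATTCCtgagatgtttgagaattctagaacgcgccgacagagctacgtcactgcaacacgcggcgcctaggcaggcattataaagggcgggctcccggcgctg
Ajuba, chr14:54577662-54577911, minus strand: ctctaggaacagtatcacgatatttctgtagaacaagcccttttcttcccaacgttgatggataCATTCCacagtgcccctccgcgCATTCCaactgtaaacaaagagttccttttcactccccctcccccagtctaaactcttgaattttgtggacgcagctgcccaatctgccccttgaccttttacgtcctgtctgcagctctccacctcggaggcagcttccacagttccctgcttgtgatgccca

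Counted from the RefSeq start, the letters began at position -141 in Yap1, -136 in Wwtr1 and -103 in Cyr61. In Ajuba they occurred at 2 positions, -186 and -164. For Ankrd1 and Amotl2 only the stretch around the letters is given, since their windows run into annotated exons of the genes themselves. Both windows lie inside the annotated span of the gene, with 250 and 136 bases in its exons. They are therefore not upstream of the annotated start.
Ankrd1, chr19:36120037-36120066, minus strand: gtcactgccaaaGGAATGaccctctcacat
Amotl2, chr9:102717727-102717756, plus strand: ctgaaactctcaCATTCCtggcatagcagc

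Ankrd1 had the letters at positions -210 and -123, and Amotl2 at -65, again counted from the RefSeq start. The window of Lats2 did not hold them. That window (chr14:57746124-57746373) lies inside the annotated span of the gene, which ends at 57758388 on the minus strand. The DNA before the annotated start of Lats2 was therefore not searched. AP-1 factors, which often bind enhancers together with TEAD factors, recognise TGACTCA and TGAGTCA, and both were searched. These letters were in 0 of the 7 windows, against 4.43% of the windows of all genes. With so few windows, 0 matches cannot be told apart from the share of all genes. The genes with TEAD letters did not share 1 pattern of expression: Wwtr1 and Cyr61 passed the threshold in AP mice, while Amotl2 had its highest values in the pretreated mice.

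Differences between groups were tested with limma on log2(TPM + 0.5) and are given on this scale with their standard error, which understates the change of genes with low values. To pass the threshold, a gene needed a change of at least 2-fold and a p of at most 0.05 after Benjamini-Hochberg adjustment over all tested genes. With 2 mice a group, the smallest two-sided p of an exact permutation test is 0.333, so a call relies on the spread shared among genes. Values of the controls are the least precise, with an estimated 3973545 and 3296998 reads behind them, against 6933818 to 10851824 in the other mice. The median difference of all tested genes was 0.45 between AP mice and controls, and 0.04 after median-of-ratios scaling, which sets this median near 0. A member with a difference near 0.45 therefore lay with the bulk of the genes. For pretreated mice it was 0.48 against the controls and 0.04 against the AP mice.

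In AP mice against controls, 2 of the 10 members rose past the threshold, the coactivator gene Wwtr1 and the target gene Cyr61, and 0 fell. Among all tested genes, 18.2% rose and 4.03% fell past it. In 6 members, both AP mice were above both controls, which was also the case for 52.6% of all tested genes. In 0 members were both AP mice below both controls, against 16.4% of all tested genes. The median difference of the members was 0.72, above the 0.45 of all tested genes. In pretreated against AP mice, 0 of the 10 members passed the limma threshold, where 0.44% of all tested genes rose and 0.404% fell. At an unadjusted p of at most 0.05 with the same fold, 0 of the members passed as well, against 4.33% of all tested genes, and 0 passed with voom on estimated reads. In 2 members both pretreated mice were above both AP mice, and in 3 members below, against 27.7% and 22.1% of all tested genes. Against controls, pretreated mice had 2 members past the threshold, again Wwtr1 and Cyr61, where 16.9% of all tested genes rose and 2.97% fell. In 7 members both pretreated mice were above both controls, and in 1 member below, against 54.4% and 14% of all tested genes. Both comparisons with controls use the same 2 controls, and both comparisons with AP mice the same 2 AP mice.

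**Figure D1:**
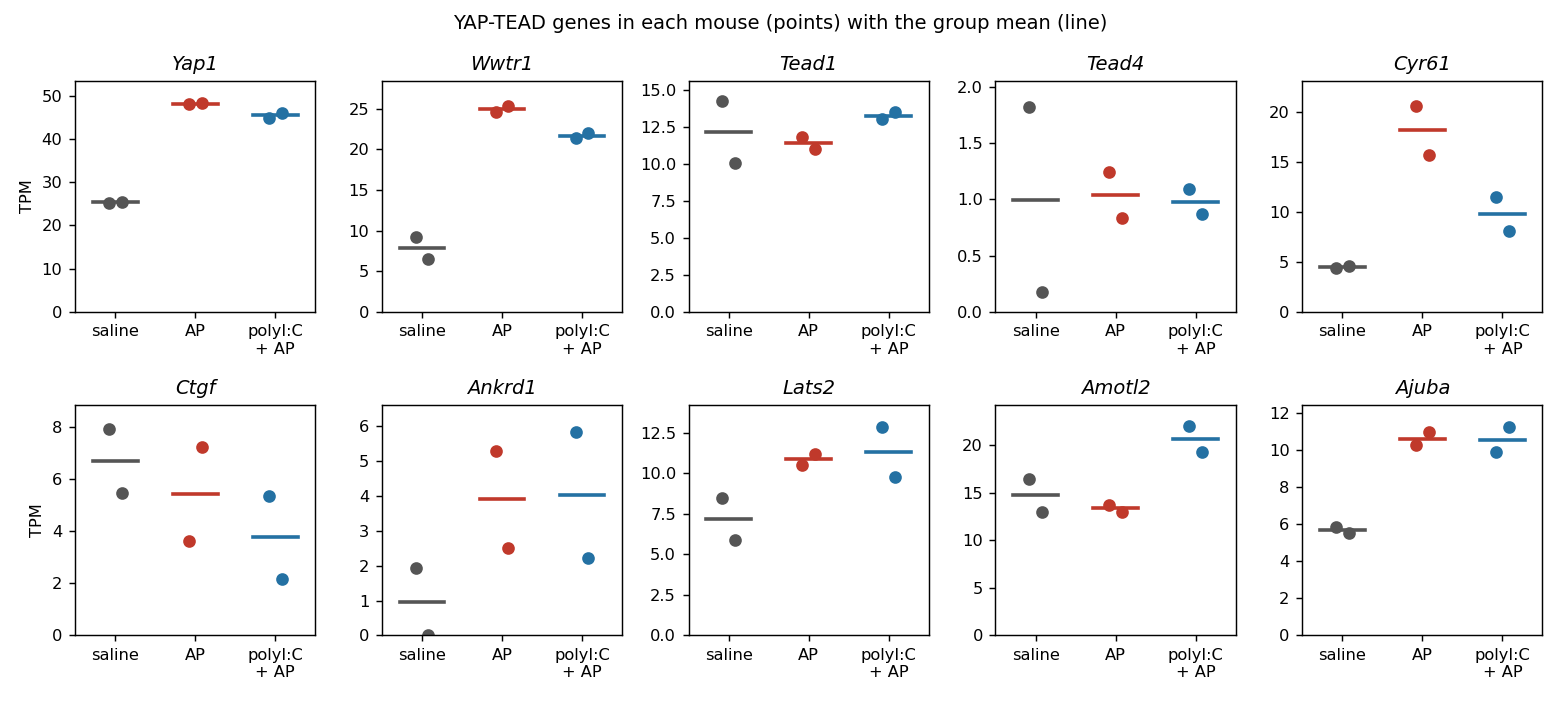
Level in TPM of each of the 10 members (vertical axes, all starting at 0) in the controls, AP mice and pretreated mice, with 1 point per mouse and the mean of the 2 mice as a line. Both coactivator genes sit higher in all 4 caerulein-treated mice than in the controls, Cyr61 is highest in the AP mice, and Amotl2 is highest with polyI:C.

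Yap1 (ENSMUSG00000053110, chromosome 9 of GRCm38 from 7931999 to 8004596, minus strand) was the most abundant member and the one with the closest replicates. It was at 25.3 and 25.3 TPM in the controls, 48.1 and 48.3 in the AP mice, and 45.0 and 45.9 with polyI:C. The 3 groups did not overlap, with the AP mice highest and the pretreated mice just below them. Both pretreated mice were below both AP mice in 22.1% of all tested genes. The AP mice were 1.89-fold above the controls, a difference of 0.92 (standard error 0.09, adjusted p = 0.00044 from limma), which stayed under the 2-fold limit. After median-of-ratios scaling the difference was 0.47 (adjusted p = 0.0081). Between the pretreated and the AP mice it was -0.08, with a 95% interval from -0.29 to 0.12.

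Wwtr1 (ENSMUSG00000027803, chromosome 3, 57455649 to 57575910, minus strand), which encodes TAZ, had the larger difference of the 2 coactivator genes. Its levels were 9.18 and 6.52 TPM in the controls, 24.6 and 25.4 in the AP mice, and 21.4 and 22.1 with polyI:C. It rose 3.09-fold in AP mice, by 1.63 on the log2 scale (standard error 0.18, adjusted p = 0.00074 from limma), and kept its call after median-of-ratios scaling (1.20, adjusted p = 0.0033). Pretreated mice were 1.43 above controls (adjusted p = 0.0013), a call that was lost under this scaling, where 0.97 (adjusted p = 0.0084) stayed just under 2-fold. The difference between both AP groups was -0.20, with an interval from -0.63 to 0.23, although the pretreated mice lay below both AP mice.

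Added up, the coactivator transcripts went from 34.4 and 31.8 TPM in the controls to 72.7 and 73.7 in the AP mice and 66.3 and 68.0 with polyI:C. Wwtr1 provided 26.7% and 20.5% of this sum in the controls, 33.9% and 34.5% in the AP mice, and 32.2% and 32.5% with polyI:C. The share was thus higher in every caerulein-treated mouse than in either control mouse. Shares and ratios within a mouse do not depend on how its total is scaled.

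The TEAD members were lower than the coactivator Yap1 and showed no difference past the threshold. Tead1 (ENSMUSG00000055320, chromosome 7, 112679318 to 112906807, plus strand) stood at 14.3 and 10.1 TPM in the controls, 11.8 and 11.0 in the AP mice, and 13.0 and 13.5 with polyI:C. The AP mice lay inside the range of the controls, and the difference was -0.07 (standard error 0.17, adjusted p = 0.79 from limma) or, after median-of-ratios scaling, -0.50 (adjusted p = 0.062). The pretreated mice were above both AP mice, by 0.21 with an interval from -0.20 to 0.61. Tead4 (ENSMUSG00000030353, chromosome 6, 128224288 to 128300823, minus strand) was the lowest member, at 1.82 and 0.172 TPM in the controls, 1.24 and 0.832 in the AP mice, and 1.09 and 0.868 with polyI:C. These levels correspond to an estimated 0.7 to 10.3 reads per mouse. A difference in Tead4 was not detectable at this depth (0.29, interval from -1.41 to 1.98 in AP mice against controls).

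Most TEAD transcripts belonged to the paralog Tead2, which is no member of the 10 and fell past the threshold. Tead2 was at 125 and 146 TPM in the controls, 66.7 and 62.5 in the AP mice, and 68.0 and 66.6 with polyI:C, a difference of -1.06 in AP mice (standard error 0.11, adjusted p = 0.00058 from limma) that was -1.51 after median-of-ratios scaling. In pretreated mice against controls Tead2 had a difference of -0.999 (adjusted p = 0.00079), just short of 2-fold. It made up 86.7% and 91.8% of the TEAD transcripts in the controls, 78.9% and 80.5% in the AP mice, and 75.9% and 76.3% with polyI:C. Tead1 made up 9.91% and 6.34%, 14.0% and 14.2%, and 14.6% and 15.5%, respectively. The total of the 4 TEAD genes was 144 and 159 TPM in the controls, 84.6 and 77.6 in the AP mice, and 89.6 and 87.4 with polyI:C.

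Coactivator transcripts were thus higher, and TEAD transcripts lower, in each of the 4 caerulein-treated mice than in both controls. The ratio of Yap1 and Wwtr1 transcripts to TEAD transcripts was 0.239 and 0.200 in the controls, 0.859 and 0.949 in the AP mice, and 0.740 and 0.778 with polyI:C. The 3 groups did not overlap, and the distance between controls and AP mice was far larger than that between the AP groups. No test was made of this ratio, whose parts were tested singly above.

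**Figure D2:**
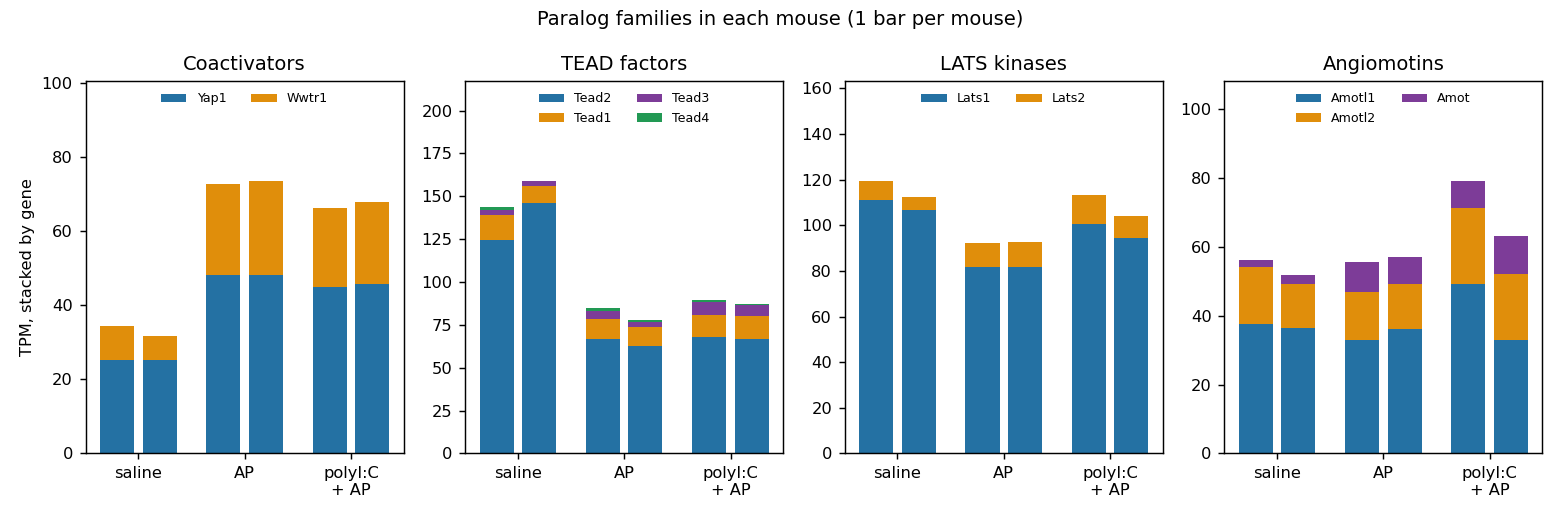
TPM of the genes of 4 families stacked in each mouse, with 1 bar per mouse and 2 mice per group. Coactivator transcripts go from 31.8 to 34.4 TPM in controls to 72.7 to 73.7 TPM in AP mice, while the TEAD total, mostly Tead2, goes from 144 to 159 TPM down to 77.6 to 84.6 TPM.

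Cyr61 (also Ccn1, ENSMUSG00000028195, chromosome 3, 145646976 to 145649981, minus strand), a secreted matricellular protein and a common readout of YAP activity, was lowest in the controls, intermediate in the pretreated mice and highest in the AP mice. It was at 4.41 and 4.59 TPM in the controls, 20.6 and 15.8 in the AP mice, and 11.5 and 8.11 with polyI:C, or an estimated 13 and 11, 89 and 86, and 61 and 54 reads. Both AP mice were above both pretreated mice, which were above both controls. Cyr61 rose 3.71-fold in AP mice, by 1.89 (standard error 0.28, adjusted p = 0.0024 from limma), and by 1.47 after median-of-ratios scaling (adjusted p = 0.0092). In pretreated against AP mice the difference was -0.87 (standard error 0.28, unadjusted p = 0.020 and adjusted p = 0.24 from limma), with an interval from -1.54 to -0.19, and 22.1% of all tested genes had both pretreated mice below both AP mice. The call in pretreated mice against controls (1.03, adjusted p = 0.028) was not stable. It was lost after median-of-ratios scaling (0.59, adjusted p = 0.18). Leaving out a mouse also ended it, with an adjusted p of 0.073 (difference 1.00) without control mouse 1, of 0.069 (1.05) without control mouse 2, of 0.072 without AP mouse 1, of 0.063 without AP mouse 2 and of 0.13 (0.78) without pretreated mouse 1. It was kept without pretreated mouse 2 (1.27).

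Ctgf (also Ccn2, ENSMUSG00000019997, chromosome 10, 24595442 to 24598683, plus strand), the paralog of Cyr61 and equally used as a YAP readout, did not follow it. It was at 7.92 and 5.49 TPM in the controls, 3.64 and 7.24 in the AP mice, and 5.37 and 2.17 with polyI:C. AP mice and controls overlapped, and the difference was -0.33 (standard error 0.50, interval from -1.52 to 0.87, adjusted p = 0.65 from limma). It turned to 0.12 without AP mouse 1. Both pretreated mice were below both controls, by -0.84 (adjusted p = 0.23), as in 14% of all tested genes. The upper bound of the Ctgf interval in AP mice, 0.87, was below the interval of the AP difference of Cyr61, which ran from 1.21 to 2.57, although the difference between both genes was not itself tested. Cyr61 transcripts numbered 0.557 and 0.836 per Ctgf transcript in the controls, 5.67 and 2.18 in the AP mice, and 2.14 and 3.74 with polyI:C. All 4 caerulein-treated mice were above both controls in this ratio, and the AP groups overlapped.

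Ankrd1 (ENSMUSG00000024803, chromosome 19, 36111961 to 36120099, minus strand), which encodes an ankyrin repeat protein best known from muscle, was low and variable. It was at 1.94 and 0 TPM in the controls, 5.30 and 2.52 in the AP mice, and 5.84 and 2.23 with polyI:C, an estimated 0 to 44.1 reads. All caerulein-treated mice were above both controls, and the AP groups overlapped. The difference of 1.92 in AP mice against controls had a standard error of 0.83 and an adjusted p of 0.11 from limma. The value depended on the controls, with a difference of 3.06 (adjusted p = 0.027) without control mouse 1 and of 0.78 (adjusted p = 0.45) without control mouse 2. Between the AP groups it was -0.01, with an interval from -2.0 to 1.98 that leaves room for large differences in both directions.

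**Figure D3:**
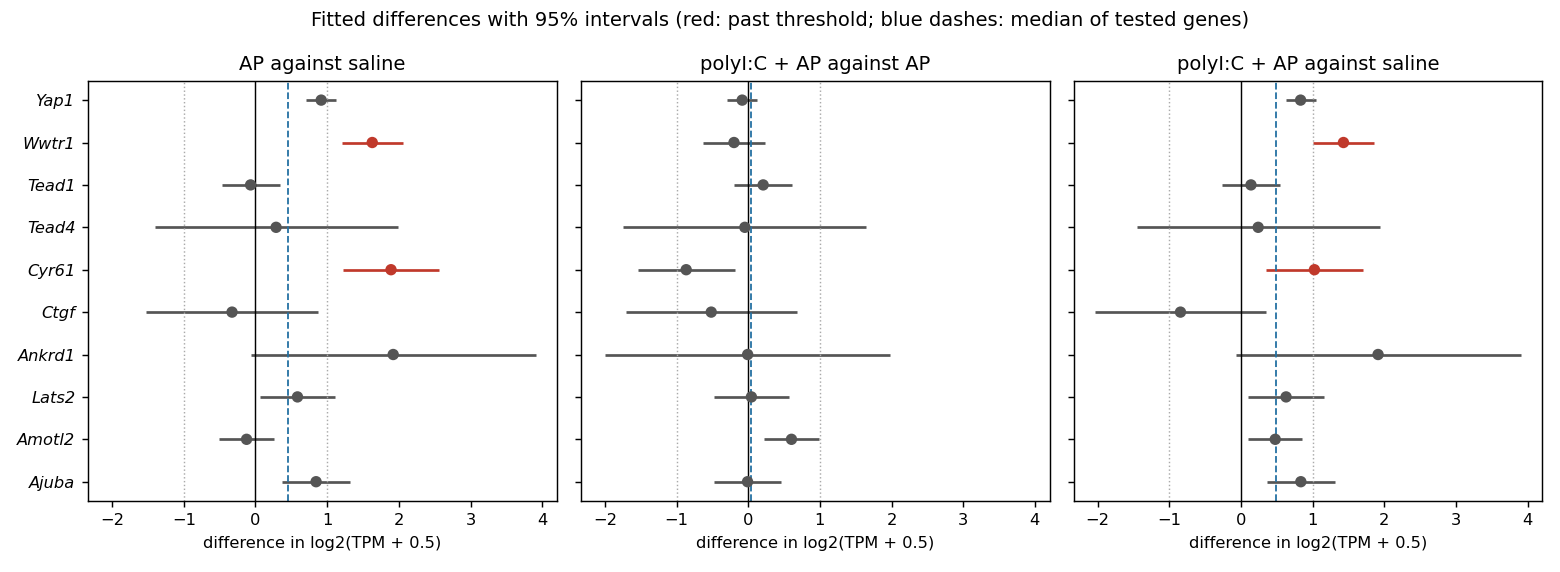
Difference in log2(TPM + 0.5) of each member (points) with its 95% interval (bars) from limma, in the 3 comparisons. Red points passed the threshold, dotted lines mark 2-fold, and the dashed blue line marks the median of all tested genes (0.45, 0.04 and 0.48). Wwtr1 and Cyr61 are past the threshold in both comparisons with controls, and no member is past it in the middle panel.

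Lats2, Amotl2 and Ajuba encode proteins that act on the coactivators. Lats2 (ENSMUSG00000021959, chromosome 14, 57689662 to 57758388, minus strand), a kinase that inactivates YAP and is itself a YAP target, was at 8.49 and 5.88 TPM in the controls, 10.5 and 11.2 in the AP mice, and 12.8 and 9.80 with polyI:C. Both AP mice were above both controls, by 0.59 (standard error 0.22, adjusted p = 0.075 from limma), close to the 0.45 of the median gene, and after median-of-ratios scaling the difference was 0.16. Its paralog Lats1 was the main LATS transcript, at 111 and 107 TPM, 81.7 and 81.6 TPM, and 100 and 94.4 TPM in the same order. Lats1 was lower in both AP mice, by -0.41 (adjusted p = 0.0091), under the 2-fold limit. The number of Lats1 transcripts per Lats2 transcript was 13.1 and 18.1 in the controls, 7.75 and 7.29 in the AP mice, and 7.82 and 9.63 with polyI:C, so the balance was tilted towards Lats2 in all 4 caerulein-treated mice.

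Amotl2 (ENSMUSG00000032531, chromosome 9, 102716672 to 102733418, plus strand), an angiomotin-like scaffold that retains YAP at cell junctions and is a YAP target, was highest with polyI:C. It was at 16.4 and 13.0 TPM in the controls, 13.8 and 13.0 in the AP mice, and 22.0 and 19.2 with polyI:C. Controls and AP mice overlapped (-0.12, interval from -0.50 to 0.25, and -0.56 with adjusted p = 0.031 after median-of-ratios scaling). Both pretreated mice were above all 4 other mice. Against controls the difference was 0.48 (adjusted p = 0.051 from limma), close to the 0.48 of the median gene. Against AP mice the difference was 0.60 (standard error 0.16, interval from 0.23 to 0.98, unadjusted p = 0.0073 and adjusted p = 0.15 from limma), which failed the correction for multiple tests, and 27.7% of all tested genes were higher in both pretreated mice. Within the angiomotin family, Amotl2 held 29.2% and 25.1% of transcripts in the controls, 24.8% and 22.8% in the AP mice, and 27.8% and 30.5% with polyI:C. The share of Amot itself was 3.57% and 4.75%, 15.6% and 13.6%, and 10.2% and 17.4%.

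Ajuba (ENSMUSG00000022178, chromosome 14, 54567472 to 54577558, minus strand), a LIM protein that inhibits LATS kinases, was at 5.87 and 5.53 TPM in the controls, 10.3 and 11.0 in the AP mice, and 9.91 and 11.3 with polyI:C. All caerulein-treated mice were above both controls, and both AP groups overlapped. The difference in AP mice was 0.85 (standard error 0.20, adjusted p = 0.014 from limma), short of 2-fold, and 0.42 after median-of-ratios scaling (adjusted p = 0.16). Against AP mice, pretreated mice differed by -0.01, with an interval from -0.48 to 0.46. Of the transcripts of Ajuba and its paralogs Limd1 and Wtip, Ajuba held 9.26% and 8.31% in the controls, 13.4% and 12.8% in the AP mice, and 11.1% and 13.6% with polyI:C.

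**Figure D4:**
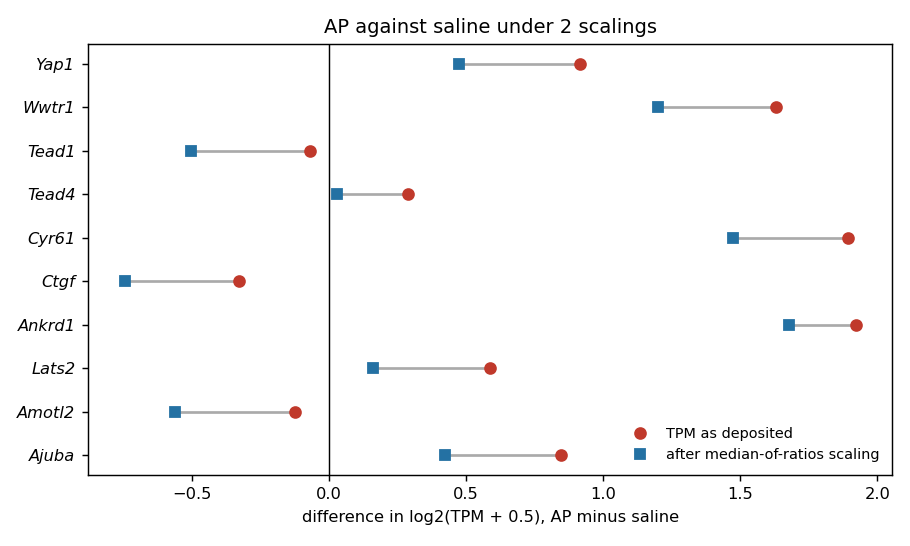
Difference between AP mice and controls in log2(TPM + 0.5) for each member with TPM as deposited (red circles) and after median-of-ratios scaling (blue squares). Every member moves to lower values under scaling, and none changes sign in this comparison.

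A list of 27 other Hippo pathway genes, of which all 27 were tested, was described by its counts. In AP mice 5 rose and 1 fell, or 18.5% and 3.70% of the list, near the 18.2% and 4.03% of all tested genes, and the median difference of 0.45 equalled that of all tested genes. The genes that rose were the atypical cadherin Fat1 (2.38, adjusted p = 3.2e-05 from limma), Amot (1.68, adjusted p = 0.0011), the kinase adaptor Mob1a (1.32), the kinase Map4k4 (1.17) and Stk3 (1.09), which encodes the kinase MST2. Fat1 was at 20.2 and 17.9 TPM in the controls, 103 and 98.7 in the AP mice, and 107 and 112 with polyI:C. Tead2, described above, was the gene that fell. In pretreated against AP mice, 0 of the 27 passed the limma threshold, and 0 did so at an unadjusted p or with voom. In pretreated mice against controls 6 rose (22.2%, against 16.9% of all tested genes), led by Fat1 (2.49), Amot (1.87), Map4k4 (1.14), Tead3 (1.12) and Ptpn14 (1.10). After median-of-ratios scaling, 2 of the list rose and 1 fell in each comparison with controls.

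Of 21 other listed YAP targets, 19 were tested. In AP mice 5 rose past the threshold (26.3%, against 18.2% of all tested genes), with a median of 0.62 over the 19, and without control mouse 1 the count was 8. The stress gene Gadd45a rose most, by 4.16 (adjusted p = 0.00032 from limma), from 1.14 and 0.351 TPM in the controls to 18.1 and 23.4 in the AP mice, with 16.3 and 14.6 in the pretreated mice. It was followed by the matrix gene Ccdc80 (2.41), Fjx1 (1.76), the matricellular gene Thbs1 (1.73) and the ferlin gene Myof (1.34). Gadd45a is a known target of other factors as well. Its control values came from an estimated 2.9 and 0.7 reads, so the size of its difference is imprecise. In pretreated mice against controls Gadd45a (3.75), Ccdc80 (1.57) and Fjx1 (1.50) rose, which is 15.8% of the list against 16.9% of all tested genes, and the count of 3 became 7 without control mouse 1 and 6 without pretreated mouse 2.

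Thbs1 was the single gene of these lists to pass the threshold between the AP groups. It was at 33.3 and 22.0 TPM in the controls, 78.7 and 105 in the AP mice, and 31.8 and 36.1 with polyI:C, so that pretreated mice and controls overlapped. It fell by 1.41 (standard error 0.22, adjusted p = 0.046 from limma), close to the limit, and the call was lost under 7 of the alternative settings and without control mouse 2, either AP mouse or either pretreated mouse. Thbs1 and Cyr61, both matricellular, were highest in the AP mice, but in the pretreated mice Cyr61 stayed above both controls, while Thbs1 overlapped them.

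**Figure D5:**
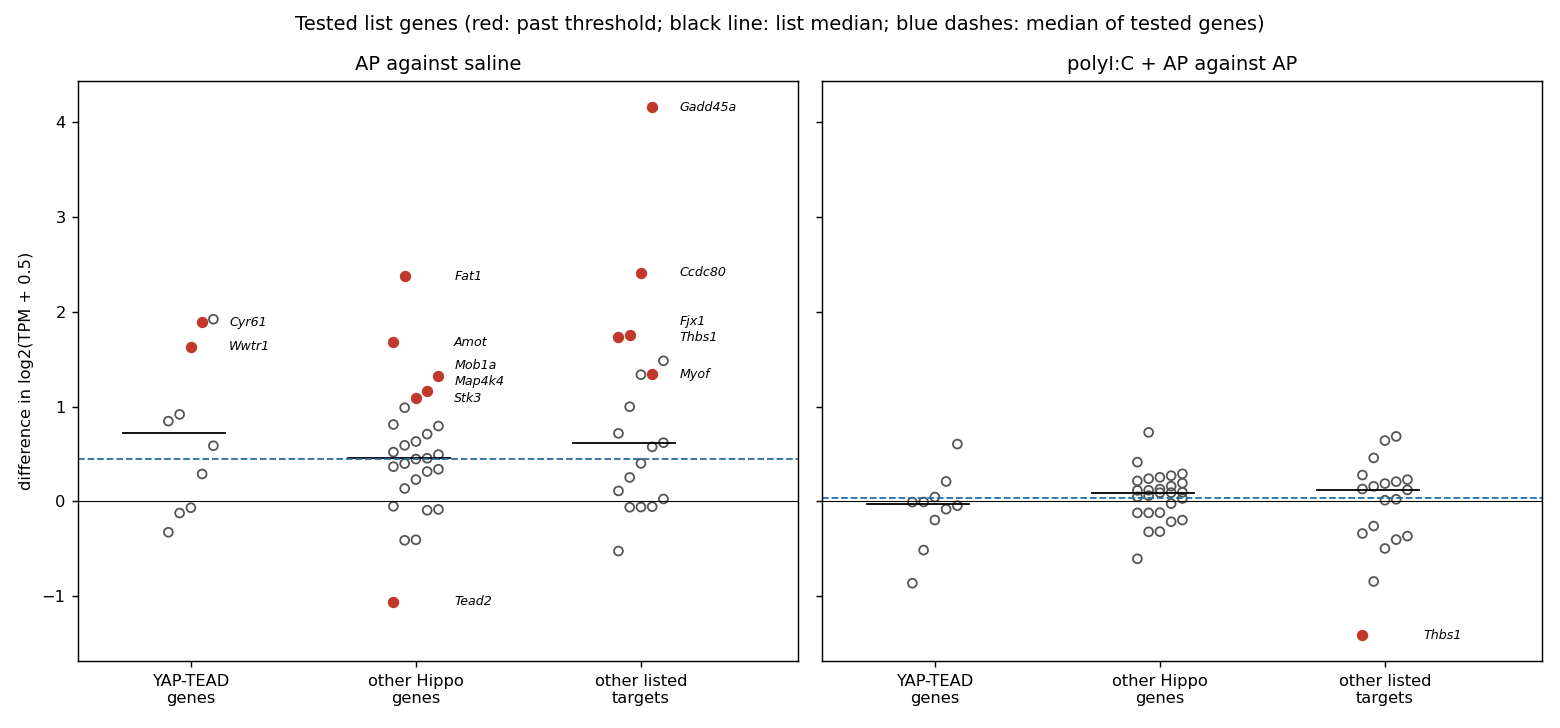
Difference in log2(TPM + 0.5) of each tested gene of the 3 lists (points) in AP mice against controls and in pretreated against AP mice. Red points passed the threshold, black lines are list medians, and dashed blue lines the medians of all tested genes. The members' median is 0.72 in the left panel and -0.03 in the right panel, where Thbs1 is the single red point.

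Markers of the cell types of the organ moved with the same groups. Duct markers, 6 of 6 with values, summed to 152 to 181 TPM in the controls, 1454 to 1492 in the AP mice and 1158 to 1188 with polyI:C, and 4 of the 6 rose in AP mice. This is the order of groups that Yap1 and Wwtr1 had. Acinar markers, of which 6 of 12 had values, summed to 919 to 1119 TPM, 321 to 376 TPM and 697 to 721 TPM, and 3 of the 6 fell in AP mice. The fall of the sum is carried by Bhlha15, Amy2a5 and Rbpjl. Nr5a2 was instead higher in both AP mice, at 92.4 and 97.0 TPM, 107 and 105 TPM, and 165 and 145 TPM in the same order. Ptf1a overlapped between controls and AP mice. Of the 6 acinar markers, 3 rose in pretreated against AP mice. Macrophage markers, 8 of 8, summed to 422 to 610 TPM, 2442 to 2793 TPM and 507 to 638 TPM. The macrophage sum is carried by Lyz2, and its members differed: in pretreated mice against controls, 3 of the 8 were past the threshold as higher and 2 as lower.

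Stellate cell markers, 10 of 10, summed to 641 to 895 TPM, 846 to 1042 TPM and 741 to 889 TPM, a sum carried by Dcn, and 5 of the 10 rose in AP mice, with a median difference of 1.24. Endothelial markers, 8 of 8, summed to 70.3 to 114 TPM, 94.4 to 105 TPM and 77.6 to 126 TPM. Islet markers, 6 of 6, were at 1126 to 1620 TPM, 1136 to 1604 TPM and 835 to 1122 TPM. Neutrophil markers, 5 of 7, were at 5.15 to 16.6 TPM, 57.9 to 68.2 TPM and 18.8 to 41.3 TPM, with S100a8 and Cxcr2 at 0 in at least 1 mouse. Lymphocyte markers, 6 of 6, were at 8.04 to 8.33 TPM, 4.95 to 24.7 TPM and 3.05 to 6.99 TPM, with Cd3e at 0 in at least 1 mouse. The part of these cell types in the members' values was not tested.

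Genes with patterns most like Yap1 and Ctgf over the 6 mice were sought among the 9409 genes whose mean reached 10 TPM. For Yap1, Prrg4, Tmc5 and Ddias came closest, but 37.7% of the candidates had a Pearson correlation above 0.9 with it, so this pattern was a common one. For Ctgf, 20 genes were above 0.9 (0.213%), and the complement gene C7, the demethylase gene Kdm4c and Cnpy3 came closest. The values of the 6 mice share 3 groups and different depths, and these likenesses are descriptions.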

How the data were processed

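Pancreas RNA of 6 mice was sequenced. Per the submitters' processing notes and the study's methods, the authors used Trimmomatic for trimming, STAR for mapping to mm10, HTSeq for counts and DESeq2 for comparisons. What the authors deposited is TPM, and the step from counts to TPM is not given in the sources used here. The labels name a ribosomal RNA depletion kit and a stranded mRNA kit. Groups came from the treatment labels, and no source ties mice of 1 number to a shared day or litter, so mice were treated as unpaired. The p-values rest on the spread within groups of these 6 mice, drawn towards that of genes with similar reads. They speak for these mice only.

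Here, 22490 of 22556 Ensembl identifiers matched GENCODE M21 (GRCm38), which gave symbols and coordinates. The 16814 genes whose mean reached 1 TPM were fitted with limma 3.58.1 in R 4.3.3 on log2(TPM + 0.5), with 1 coefficient per group and a prior variance that followed log2(mean TPM × exon length + 1). Scripts were tested on simulated data. Reads per library were estimated from the spacing of low TPM values, of which 50.7% to 62.0% per library fell within 0.1 of a whole multiple. These estimates are approximate and cover counting only.

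Genes named are the members, up to 5 called rises and falls per list and comparison, the 3 genes most like Yap1 and Ctgf, and the members' paralogs and markers, the paralogs being chosen with values known. The members, lists and tests were chosen with earlier results of these data known, so the lists give no independent support. Alternatives were other pseudocounts, filters, scalings, priors, call rules, the replicate block, and leaving out each mouse. Pathway lists were described without a set test, and 1 further listed target is not reported here.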

Additional observations from a re-analysis of the deposited data

How the results depend on the processing

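With 2 mice a group and few reads behind the low genes, Tead4, Ankrd1 and Ctgf carry wide intervals. Leaving out a mouse leaves 1 in its group, which is assumed to vary like the others. Across the alternatives, 519 values of single members kept direction and side of the threshold, while 12 lost and 8 gained a call, and 22 changed direction. Other filters, priors and call rules, the replicate block and a fit of only the compared groups leave the difference itself unchanged. So does leaving out a mouse of the third group. The direction could not change in these settings, so the count of 519 is no measure of stability. Voom on estimated reads was chosen after seeing the data. The causes were not tested.

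Members past the threshold in AP mice against controls numbered 2, and 4 with no fold limit (Yap1 and Ajuba added). In pretreated mice against controls they numbered 0 under either scaling, 1 with a pseudocount of 1, with only the 2 groups compared or with voom, and 4 with no fold limit. Without each mouse in turn the counts ran from 2 to 3, from 0 to 0 between the AP groups, and from 1 to 2. Hippo list genes numbered 3 under either scaling and 12 with no fold limit in AP mice against controls. In pretreated mice against controls they numbered 3 under either scaling or voom and 15 with no fold limit. Without each mouse they ran from 4 to 8, from 0 to 0 and from 4 to 8. Other targets past the threshold between the AP groups numbered 0 with a pseudocount of 0.1, no filter, 0.5 TPM in 2 samples, the prior following the mean value, 1 prior for all genes, only the 2 groups or the replicate block. In pretreated mice against controls they numbered 6 at an unadjusted p and 5 with no fold limit. Without each mouse they ran from 5 to 8, from 0 to 1 and from 3 to 7.

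With the replicate number as a block, 3 members passed the threshold in each comparison with controls, Ankrd1 being added (1.92 and 1.91, adjusted p = 0.023 and 0.025 from limma). Deviations of same-numbered mice from their group means correlated with 0.0075, -0.0039 and 0.0351 across genes. These values cover all tested genes together, so they cannot show whether single genes share a pairing.

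Changes of direction were found in values that did not pass the threshold. When each mouse was left out in turn, the difference between AP mice and controls ran from -0.31 to 0.17 for Tead1, from -0.29 to 0.037 for Amotl2, from -0.61 to 0.48 for Tead4 and from -0.78 to 0.12 for Ctgf. Between the pretreated and AP mice it ran from -0.14 to 0.23 for Lats2, from -0.61 to 0.60 for Ankrd1, from -0.097 to 0.078 for Ajuba, from -0.24 to 0.063 for Tead4 and from -1.09 to 0.054 for Ctgf, and that of Lats2 was -0.0021 with upper quartile scaling and -0.0030 with voom. Between the pretreated mice and controls it ran from -0.10 to 0.38 for Tead1 and from -0.65 to 0.35 for Tead4. These genes were at -0.32 and -0.032 with median-of-ratios scaling, at -0.34 and -0.054 with upper quartile scaling and at -0.14 and -0.12 with voom, and Amotl2 was at -0.010 with upper quartile scaling. Without control mouse 1, Ankrd1 differed by 3.06 from the controls in the AP and in the pretreated mice (adjusted p = 0.027 and 0.029 from limma).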

Other observations

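Among the other listed YAP targets, 3 rested on very few reads. The growth factor gene Areg was at 0 and 0 TPM in the controls, 1.93 and 0.305 in the AP mice, and 0 and 8.99 with polyI:C, so a single mouse held most of its signal. Birc5, a gene of dividing cells, was not tested, at 0 and 0.808 TPM, 1.01 and 0.0887 TPM, and 0.274 and 3.34 TPM, and its highest value came from the same mouse, pretreated mouse 2. Foxf2, a mesenchymal transcription factor gene, was at 0.870 and 0 TPM, 0 and 0.313 TPM, and 0 and 0.770 TPM. These genes were picked after their values were seen.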
